A study of Mus musculus with 4 samples.

Results

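The 2'-5'-oligoadenylate synthetase (Oas) genes of the mouse lie in 2 clusters on chromosome 5, and their transcripts were compared here between naive and pretreated fibroblasts, both after 1 h of interferon-beta. Members were all loci of the deposited table that carry a transcript ID and overlap positions 121175000 to 121360000 (the Oas1, Oas2 and Oas3 genes) or 115345000 to 115389000 (the Oasl genes) of chromosome 5 in build mm9. These were 8 of 17576 loci, 6 in the first window and 2 in the second. The windows held 0 loci without a transcript ID. The members were selected on the FPKM values of these libraries, naive against pretreated at 1 h, so every level and ratio of a member is a description and not a test.

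The cells were mouse embryonic fibroblasts (primary fibroblasts grown from embryos) of strain C57BL/6 that carry an H3.3-HA knock-in, in which the H3f3b gene was exchanged for a cDNA of the tagged histone. All groups carry this allele. The 4 groups cross a naive or pretreated state with 0 h or 1 h of interferon-beta at 100 U/ml, with 1 library of polyA RNA each. The naive 1 h library had interferon-beta for 1 h, and the pretreated 1 h library had the same after the pretreatment, whose agent, length and interval are not in the labels. Values of the 0 h libraries were not used here, so a level at 1 h cannot be split into what was present before the hour and what came during it. With 1 library per group no difference has a replicate check. Since these are bulk samples, a change in the number of expressing cells and a change in RNA per cell cannot be told apart.

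Oas enzymes sense double-stranded RNA and then join ATP into short 2'-5'-linked chains of adenosine. These chains act as a second messenger in the antiviral response. The genes are classical targets of type I interferon, which acts through the receptor, the kinases Jak1 and Tyk2 and a transcription factor complex that includes Stat2 and Irf9. The complex binds the interferon-stimulated response element, a promoter sequence built of repeated GAAA blocks.

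The table pairs loci with transcript IDs and gives no gene symbols. Symbols were therefore assigned by lengths and internal distances against gene models of GRCm38, without converting any coordinate. The span of each of the 8 loci matched a model, or the union of 2 neighbouring models, on the same chromosome to within 47 bp. The distances to neighbouring loci matched too. For 7 of the 8 loci the difference was 8 bp or less, and the Oas1e locus of 9219 bp matched exactly. The remaining locus, from 121326151 to 121357577 (31427 bp), spans 2 genes. It matched the union of the Oas1g and Oas1a models, and its value combines both. It is called the Oas1g/Oas1a locus below. Models of Oas1f and Oas1h, which lie between Oas1b and Oas1g in GRCm38, had no counterpart among the members, so no expression value is given for them.

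Promoter sequence was available from RefSeq (GRCm38.p6) for 6 member genes, counted with Oas1a and Oas1g separately. Oas2, Oas1b and Oas1e had no entry. The bases just before the annotated start are shown for 5 of these genes, from across the range of changes described below, 5′ to 3′ on the gene's strand, with capitals marking the core of the interferon-stimulated response element, which was searched on both strands as GAAA, 2 free bases and GAAA. Oas1a is from chr5:120907526-120907775, Oas1g from chr5:120887614-120887863 and Oas3 from chr5:120777660-120777909, all on the minus strand. Oasl2 is from chr5:114896684-114896933 on the plus strand. For Oas1c, on the minus strand, the whole gap up to the start of Oas1b is given, chr5:120812515-120812634.
Oas1a: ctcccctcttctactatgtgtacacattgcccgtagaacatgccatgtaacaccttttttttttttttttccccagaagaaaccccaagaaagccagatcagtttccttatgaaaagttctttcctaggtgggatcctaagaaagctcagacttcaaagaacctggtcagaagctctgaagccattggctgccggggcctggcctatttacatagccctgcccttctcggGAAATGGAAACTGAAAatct
Oas1g: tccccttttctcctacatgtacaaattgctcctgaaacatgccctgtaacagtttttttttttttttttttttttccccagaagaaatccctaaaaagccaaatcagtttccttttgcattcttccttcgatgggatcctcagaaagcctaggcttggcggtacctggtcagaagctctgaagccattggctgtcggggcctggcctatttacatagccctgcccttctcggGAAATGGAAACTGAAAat
Oas1c: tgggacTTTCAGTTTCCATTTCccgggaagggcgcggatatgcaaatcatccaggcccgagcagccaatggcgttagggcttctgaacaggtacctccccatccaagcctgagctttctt
Oas3: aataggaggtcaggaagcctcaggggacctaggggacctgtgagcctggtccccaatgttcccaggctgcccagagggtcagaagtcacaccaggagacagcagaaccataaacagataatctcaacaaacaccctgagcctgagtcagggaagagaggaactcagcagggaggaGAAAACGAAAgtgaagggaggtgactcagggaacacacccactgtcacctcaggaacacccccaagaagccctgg
Oasl2: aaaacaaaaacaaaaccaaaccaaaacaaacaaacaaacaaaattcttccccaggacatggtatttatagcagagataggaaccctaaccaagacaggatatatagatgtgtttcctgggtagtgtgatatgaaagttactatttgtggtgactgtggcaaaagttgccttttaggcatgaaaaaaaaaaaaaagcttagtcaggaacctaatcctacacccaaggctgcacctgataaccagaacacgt

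The capitals in Oas1a and Oas1g are the same 16 bases, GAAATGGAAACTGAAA, which hold a pair of overlapping cores. They lie 20 to 5 bases before the start of Oas1a and 18 to 3 bases before that of Oas1g. The capitals in Oas1c, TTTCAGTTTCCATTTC, are the reverse complement of the same 16 bases. They lie 114 to 99 bases before the start of Oas1c, and, read on the other strand, 22 to 7 bases before the start of Oas1b, which is transcribed away from Oas1c. The intact 16 bases were found on either strand in 7 of 32851 promoter windows of 300 bases (250 before to 50 after a start), or 0.0213%, and these belonged to 5 genes: Oas1a, Oas1c, Oas1g, Apol9a and Apol9b. This search was chosen after the sequences were seen. The core alone was present in 3.44% of all windows and 2 or more times in 0.225%.

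Oas3 held 1 core, 75 to 66 bases before the start. The windows of Oasl2 and Oasl1 held 0 exact matches to the core, as did those of Oas1f and Oas1h, and near matches were not counted. TTCNNNGAA, the core of the gamma-activated site, was present once in Oas1a, 98 to 90 bases before the start, and in 8.30% of all windows. A TATA box (TATAAA) matched in Oasl2 alone among these genes, on the opposite strand, and in 13.6% of all windows. The match in Oas1a did not overlap its response element cores. A match is a string of letters in a window and was not tested for binding. The upstream stretches of Oas1a and Oas1g shown above were 82.8% identical over an alignment of 256 columns, 12 of them gaps.

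Every member was higher in the pretreated library. Values are FPKM, fragments per kilobase of transcript per 1000000 mapped fragments, so levels can be set side by side between genes of different length if the assay is RNA-seq, as the series title says; the sample descriptions read scTSS-seq. The 8 loci summed to 13.9 FPKM in naive cells and to 421 FPKM in pretreated cells, 30.2 times as much. No member exceeded 4.95 FPKM in the naive library, and 4 members exceeded 15 FPKM in the pretreated library: the Oas1g/Oas1a locus, Oasl2, Oas2 and Oas1b.

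**Figure D1:**
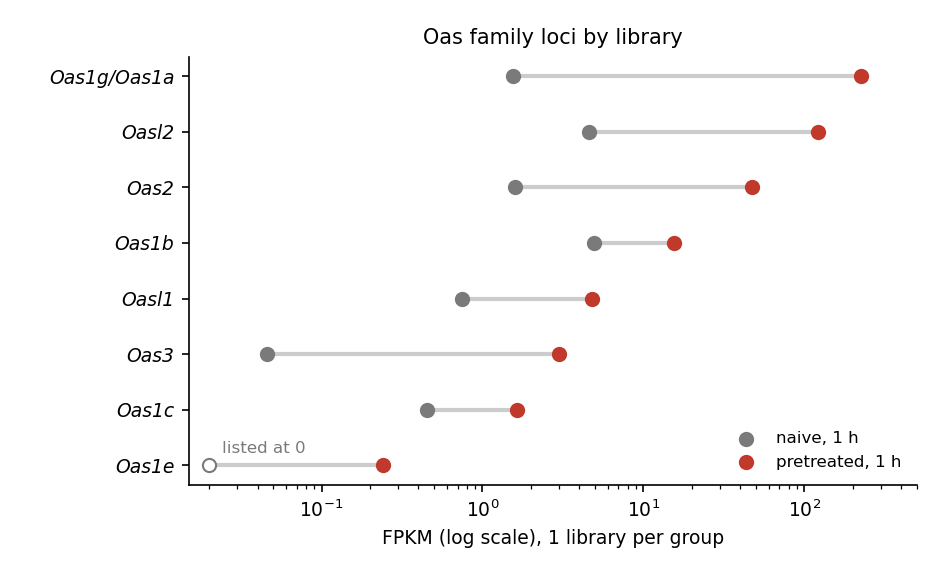
FPKM of the 8 Oas family loci (log axis) in the naive (grey) and pretreated (red) 1 h libraries, 1 library each, with loci ordered by the pretreated value. All 8 red points lie to the right of the grey ones; the open point marks Oas1e, listed at 0 in naive cells and drawn at the left edge.

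Among the genes for active synthetases, Oas1a and Oas1g encode the small form of the enzyme. The Oas1g/Oas1a locus had 1.56 FPKM in the naive and 226 FPKM in the pretreated library, 145-fold higher. In the naive library it lay above 48.2% of all loci with a transcript ID, close to the middle, and in the pretreated library above 97.5%. On the scale of log2(FPKM + 1) its change was 6.47, which ranked 1 among 10228 loci compared.

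Oas2, which encodes the middle-sized synthetase, lies at the other end of the cluster, from 121180342 to 121199857. It had 1.60 FPKM in the naive and 47.3 FPKM in the pretreated library, 29.6-fold higher. Its naive level was nearly that of the Oas1g/Oas1a locus, while its pretreated level was far lower.

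Oas3 encodes the largest synthetase and adjoins Oas2 at a distance of 3249 bp (121203107 to 121227668). It was nearly silent in the naive library at 0.0459 FPKM, above 12.0% of loci with a transcript ID, and reached 2.99 FPKM in the pretreated library, above 60.6%. The ratio was 65.3-fold, and it rests on a very low naive value.

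The Oasl proteins carry ubiquitin-like repeats behind the synthetase fold. Oasl2, which keeps synthetase activity, spans 115346943 to 115362254 and had 4.59 FPKM in the naive and 122 FPKM in the pretreated library, 26.5-fold higher. Oasl1, which lacks that activity and is known as a repressor of Irf7 translation, lies 10994 bp further on (115373249 to 115387920) and had 0.748 and 4.79 FPKM, 6.40-fold higher. The neighbours thus differed in level by 25.4 times in pretreated cells and by 6.14 times in naive cells.

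Oas1b, known for resistance to flaviviruses, carries a premature stop codon in laboratory strains such as C57BL/6, and RefSeq lists it as a transcribed pseudogene. Its locus (121262644 to 121274169) had the highest naive value of the family, 4.95 FPKM, and 15.4 FPKM in the pretreated library, 3.12-fold higher. Oas1c, whose locus ends 120 bp before that of Oas1b (121250208 to 121262523), had 0.453 FPKM in the naive and 1.65 FPKM in the pretreated library, 3.64-fold higher. The divergent pair thus had similar ratios at levels that differed by 10.9 times in naive and 9.36 times in pretreated cells.

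Oas1e (121236321 to 121245539) was listed at 0 in the naive library and had 0.242 FPKM in the pretreated library. No ratio is given against a value of 0. The authors left this locus untested, and its pretreated value lay under 0.556 FPKM, the highest value of any untested locus in that library.

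The ratios ran from 3.12 for Oas1b to 145 for the Oas1g/Oas1a locus. With 1 library per group, the only error at hand is that carried by the authors' test statistic. In the authors' deposited table the p-values are the two-sided normal tail of this statistic, so the log2 ratio divided by it gives a standard error. What this error includes besides read counts is not given. It was 0.371 for Oasl2 and 0.254 for Oas2, which had lower FPKM in both libraries. Taken this way from the authors' deposited table, the 95% range of the ratio was 98.0 to 216 for the Oas1g/Oas1a locus, 26.4 to 161 for Oas3, 20.9 to 41.8 for Oas2 and 16.0 to 43.9 for Oasl2. For the members with lower ratios, the authors' deposited table gave 3.56 to 11.5 for Oasl1, 1.79 to 7.41 for Oas1c and 2.06 to 4.71 for Oas1b. Most neighbours in this order had overlapping ranges. The ranges rest on these libraries alone, cannot measure the variation between cultures and are no test of one member against another. The order depends on the scale for low genes: as a difference of log2(FPKM + 1), the change of Oas3 was 1.93, close to the 1.73 of Oasl1, while Oasl2 had 4.46 and Oas2 4.21.

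**Figure D2:**
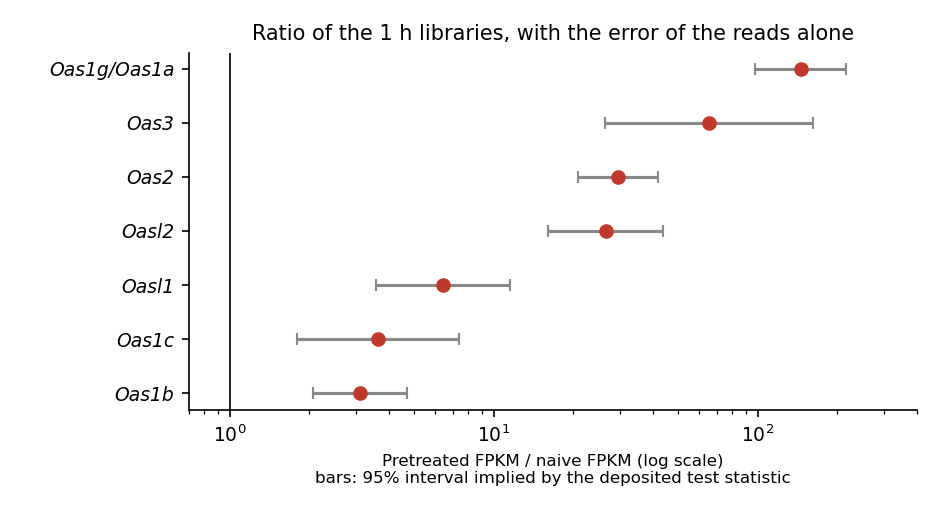
Ratio of pretreated to naive FPKM (log axis) for the 7 members above 0 in both libraries, with bars for the 95% range implied by the deposited test statistic. The range rests on these libraries alone. What it includes besides read counts is not given, although the title of the figure names the reads alone. The 4 upper loci lie between 26.5 and 145 and the 3 lower ones between 3.12 and 6.40.

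The makeup of the family signal, which sets levels of different genes side by side and so presumes RNA-seq, differed between the libraries. In naive cells Oas1b gave 35.5% of the summed FPKM, Oasl2 32.9%, Oas2 11.5% and the Oas1g/Oas1a locus 11.2%. In pretreated cells the Oas1g/Oas1a locus gave 53.8%, Oasl2 29.0%, Oas2 11.2% and Oas1b 3.67%. The shares of Oasl2 and Oas2 were thus much alike in both libraries, and Oas1b and the Oas1g/Oas1a locus exchanged places. Without the Oas1g/Oas1a locus, the sum of the other 7 was 12.4 FPKM in the naive and 194 FPKM in the pretreated library, 15.7-fold higher.

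**Figure D3:**
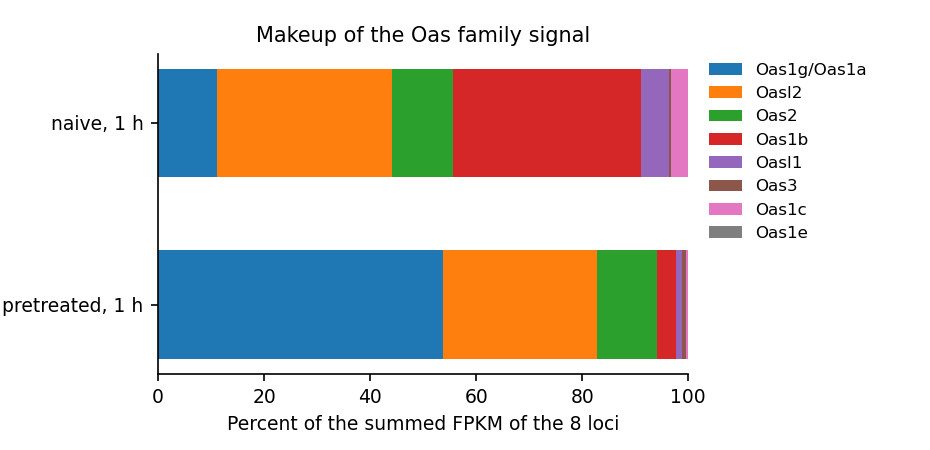
Percent of the summed FPKM of the 8 loci given by each locus (colours) in the naive and pretreated 1 h libraries. Oas1b (35.5%) and Oasl2 (32.9%) lead in naive cells, and the Oas1g/Oas1a locus (53.8%) in pretreated cells. The shares presume RNA-seq.

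Part of the Oas1 transcripts cannot be assigned to 1 gene. Of all 50-base stretches in the longest GENCODE M21 transcript, 57.6% for Oas1a also occurred in Oas1g, and 54.1% for Oas1g in Oas1a. For Oas1e 8.50% occurred in Oas1c, for Oas1c 6.65% in Oas1e and for Oas1b 1.34% in Oas1g. The transcripts of Oas2, Oas3, Oasl1 and Oasl2 shared 0% with any other member. The read length and the treatment of reads with several matches are not given in the sources used here. The division between Oas1c and Oas1e is therefore uncertain. Only exact stretches shared among the members were counted, so these shares do not measure the full extent of this uncertainty. With 75-base stretches 47.6% of Oas1a was still shared with Oas1g, and Oas1c and Oas1e shared 0.992% and 1.27%.

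All loci were then compared on the scale of log2(FPKM + 1), where a mean FPKM of 1 over the libraries was the minimum and 24 loci of status FAIL or HIDATA were left out. This scale understates the change of low loci. Of the 8 members 7 passed the filter and 6 were at least 2-fold higher in the pretreated library; among all 10228 loci compared, 2.83% were. Members at least 2-fold lower numbered 0, against 7.12% of all loci. Over all loci 289 were higher and 728 lower, and 423 and 527 after centring on the median. The member short of 2-fold was Oas1c, with 0.87 on this scale, and Oas1b was the lowest past it, with 1.46. The median change of the 7 members was 1.93, which is the value of Oas3, and that of all loci compared was -0.16. Oas3, Oasl1 and Oas1c were under 1 FPKM in the naive library, so they passed the filter only through their pretreated values. In the authors' deposited table, significant calls were carried by 7 of the 8 members, all but Oas1e, and 3.91% of the 13388 loci tested there were called higher in the pretreated library. Nothing is read from these counts and medians, since the windows were drawn on this contrast.

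**Figure D4:**
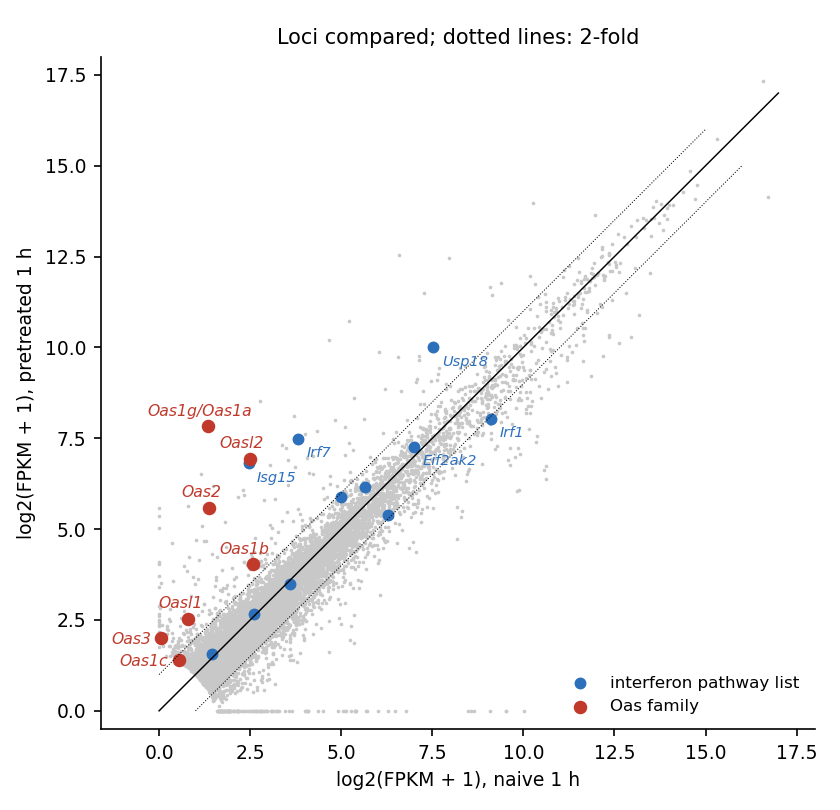
Loci compared (grey), with log2(FPKM + 1) of the naive 1 h library on the x axis and of the pretreated 1 h library on the y axis, the 7 Oas members that passed the filter in red and the interferon pathway list in blue. The 3 members with the highest changes (6.47, 4.46 and 4.21) lie far above the dotted 2-fold line, and Oas1c (0.87) lies below it.

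The loci beside the clusters were chosen by position. Within 500000 bp of the windows 46 loci with a transcript ID were found, and 29 passed the filter. Of these, 0 were higher by 2-fold or more and 0 were lower by as much, where the shares of all loci compared, 2.83% and 7.12%, would give few among 29. Their median change was 0.06, with a lowest of -0.58 and a highest of 0.90. The flanks differed: the median was 0.26 beside the Oas1, Oas2 and Oas3 window (9 loci, -0.12 to 0.90). Beside the Oasl window it was -0.02 (20 loci, -0.58 to 0.40). The locus next to Oasl2, 4930519G04Rik, had 2.94 FPKM in the naive and 1.63 FPKM in the pretreated library, and the one past Oasl1, 2210016L21Rik, had 4.94 and 5.95 FPKM. The second on each side, 2610524H06Rik and Sppl3, had 3.67 and 3.58 FPKM and 2.92 and 2.83 FPKM. Beside the Oas1, Oas2 and Oas3 window, a locus without a symbol 90756 bp away had 0.599 and 0.421 FPKM. Further on the same side Rita1, a regulator of Notch signalling, had 1.13 and 2.01 FPKM, 1.78-fold higher. Slc8b1 had 0.730 and 1.45 FPKM, 1.99-fold higher. A locus without a symbol 221368 bp away had 1.35 and 2.54 FPKM, 1.88-fold higher. Rita1, Slc8b1 and this locus were all that passed the filter on that side. On the other side Rph3a, a synaptic vesicle protein, was listed at 0 in naive cells and had 0.0575 FPKM in pretreated cells. The highest change in the flanks was that of Trafd1, a zinc finger protein known as a brake on innate immune signalling, at 7.74 and 15.4 FPKM, 461734 bp from the window.

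The Oas1d locus lies 4827 bp outside the first window, so it is no member and is counted among the flanking loci. It was listed at 0 in naive cells and had 0.110 FPKM in pretreated cells, like Oas1e on the low side.

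**Figure D5:**
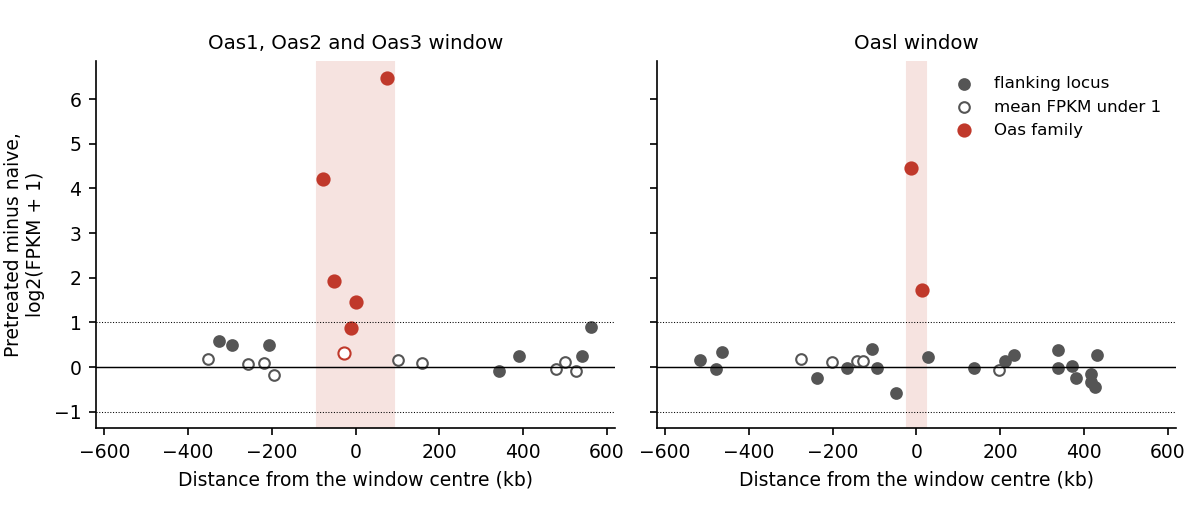
Difference of log2(FPKM + 1), pretreated minus naive, by distance from the centre of each window in kb, for the members (red) and flanking loci (grey). Oas1d is drawn among the flanking loci. Open points are loci of a mean FPKM under 1, and dotted lines are at 2-fold. The flanking loci lie between -0.58 and 0.90 and the members that passed the filter between 0.87 and 6.47.

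Genes linked to Oas function or to the interferon response, with sensors and other interferon targets among them, were given by a list of 18. Of the list, 12 could be paired with a locus and 11 passed the filter. Of these 11, 3 were 2-fold or more above their naive value in the pretreated library, and 1 was as far below it; over all loci compared these shares were 2.83% and 7.12%. Abce1, a ribosome recycling factor, had 76.6 FPKM in the naive library and 41.2 FPKM in the pretreated library.

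Irf7, the factor whose translation Oasl1 represses, had 13.2 FPKM in the naive and 179 FPKM in the pretreated library, 13.6-fold higher. Irf9 had 30.8 and 58.2 FPKM, 1.89-fold higher. Irf1, an early interferon target, went the other way, with 555 FPKM in the naive and 263 FPKM in the pretreated library.

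Isg15, a ubiquitin-like antiviral protein, had nearly the pair of values of Oasl2, 4.49 and 112 FPKM, 24.9-fold higher. Usp18, which removes Isg15 from proteins and dampens receptor signalling, had 184 FPKM in the naive and 1034 FPKM in the pretreated library, 5.63-fold higher. Of the other sensors of double-stranded RNA, values were at hand for Eif2ak2, the kinase PKR, with 128 and 154 FPKM, and for Ddx58, the sensor RIG-I, with 49.7 and 70.0 FPKM, both under 2-fold; Ifih1 and Dhx58 were not paired with a locus. Both stood far above any Oas locus in the naive library. Signal transducers had values close together, with Ifnar2 at 5.13 and 5.38 FPKM, Tyk2 at 1.72 and 1.94 FPKM and the adaptor Mavs at 11.1 and 10.2 FPKM. Socs1, an inhibitor of Jak kinases, did not pass the filter, at 0.983 and 0.333 FPKM.

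Of 6 fibroblast markers, 5 were paired with a locus and 4 passed the filter. Vim led at 917 FPKM in the naive and 704 FPKM in the pretreated library, followed by Col1a2 at 521 and 293 FPKM. Pdgfra had 6.80 and 7.61 FPKM, and Thy1, which did not pass the filter, had 0.144 and 0.293 FPKM. The summed level of the 5 paired markers was 1556 and 1074 FPKM. Of 8 markers of blood, epithelial and endothelial cells, Cdh1 had 1.30 and 1.33 FPKM and Pecam1 0.0629 and 0.0204 FPKM, and the others were not paired with a locus. The part of these differences in the Oas values was not tested. The absolute depth is unknown. At loci without a transcript ID that were listed at 0 in the other library, small read counts were inferred from the deposited p-values. The p-values there were taken as the upper normal tail of the square root of the count. On this assumption, 1 read was worth 2.03 times as many FPKM in the pretreated as in the naive library (median of 11 spans). Low pretreated values would then rest on fewer reads.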

How the data were processed

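PolyA RNA of mouse embryonic fibroblasts was sequenced; the series title names RNA-seq and the sample descriptions scTSS-seq, which no read was used to settle here. The FPKM values, p-values and q-values were deposited by the authors in 1 table that sets the naive 1 h against the pretreated 1 h library. TopHat and Cufflinks 1.2.1 with build mm9 are named, with no roles, per the submitters' processing notes; annotation, filters and scaling between libraries are not given in the sources used here. Deposited starts were raised by 1. Changes are differences of log2(FPKM + 1), with a pseudocount of 1 and a mean FPKM of at least 1; no test was run. Loci were named where their span matched a GRCm38 model (GENCODE M21 or RefSeq GRCm38.p6) within 200 bp and at least 3 loci among the 10 on each side matched at the same distance within 100 bp; 9001 of 15883 loci with a transcript ID (56.7%) were named, and loci that share their exact span were not. Unions of neighbouring GENCODE M21 models of the same strand were also tried, and were used only where no single model matched. The pairing code was tested on simulated data, a shifted copy of the chromosome 5 models (1369 of 1373 named right), which does not measure errors between builds. The members, the gene lists and the rule to name every member were chosen with earlier results of these data known. Of the 18 pathway genes used, 6 were not paired with a locus, and 2 further genes are not reported here. Analyses used Python 3.11.15, pandas 2.3.3 and scipy 1.17.1.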

Additional observations from a re-analysis of the deposited data

How the results depend on the processing

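No paired analysis was possible because a group holds a single library, and no library could be left out either. Members at least 2-fold higher numbered 7 with a pseudocount of 0.1, 7 after centring, 6 without a filter, 4 at a mean FPKM of at least 5 and 3 at a 4-fold threshold, with 0 lower in each. The median change of the members moved to 4.41 with a pseudocount of 0.1, where Oas3 went from 1.93 to 4.41, and to 4.34 at a mean FPKM of at least 5, which leaves 4 members. In the flanks, 1 locus was higher after centring (Trafd1) and 1 at a width of 1000000 bp (Gm5563, 1.11 and 5.27 FPKM). Over all loci, 465 were higher and 1175 lower with a pseudocount of 0.1, 176 and 452 at a mean FPKM of at least 5, and 99 and 143 at 4-fold; 391 were lower among loci with a transcript ID. Filters and thresholds change these counts by their own construction. Depth may limit the lowest values of both libraries, such as those of Oas3 and Oas1e in naive cells and of Oas1e in pretreated cells. This was not tested.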

Other observations

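The loci outside both windows most like the Oas1g/Oas1a locus were sought over the 2 libraries, with the other members left out, by the distance of their log2(FPKM + 1) values. The nearest was a locus on chromosome 17 from 35378691 to 35580718, with 1.21 FPKM in the naive and 90.6 FPKM in the pretreated library, at a distance of 1.33; its span is shared by several loci, so that no symbol was assigned. The next was Isg15, at a distance of 1.50.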
